A study of Mus musculus with 7 samples.

Results

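The 10 genes described here encode the receptors, the bridging ligands and a kinase with which the retinal pigment epithelium (RPE) binds and engulfs photoreceptor outer segments. They are *Mertk*, *Axl*, *Tyro3*, *Itgav*, *Itgb5*, *Cd36*, *Gas6*, *Pros1*, *Mfge8* and *Ptk2*. They were taken by gene symbol, with no cut on their values, from the 52740 Ensembl genes counted in every library. Earlier results of these data were known when they and the lists of other uptake genes were chosen. All 10 were among the 16990 genes that passed the filter on low counts and were tested. RPE RNA from 4 WT mice (females F1, F2 and F3 and male M1) was compared with that from 3 *LC3b*-/- mice (females F1 and F3 and male M), with 1 library per mouse and all mice 24 months old. The WT mice were C57BL6/J. The *LC3b*-/- mice were of the strain B6;129P2-Map1Lc3btm1Mrab/J, so the targeted *Map1lc3b* allele and the strain background cannot be told apart. The label of the knockout samples spells the genotype LCb-/-. The sample titles also hold a number whose meaning is not stated. It is the same for all WT mice, another for *LC3b*-/- F1 and F3, and a different one again for *LC3b*-/- M. Genotype therefore cannot be told apart from what this number stands for, nor can sex within *LC3b*-/-. The neural retina was taken off after hyaluronidase, and the RPE was then released with trypsin. The question was whether the uptake machinery differed in RPE that lacks LC3b, the protein that is placed on the phagosome after uptake.

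RPE cells engulf the shed tips of photoreceptor outer segments every day. The tips expose phosphatidylserine, which is bridged by MFG-E8 to the integrin made of the *Itgav* and *Itgb5* subunits, and this integrin tethers the tip and activates focal adhesion kinase (*Ptk2*). Engulfment itself needs the receptor tyrosine kinase MerTK, whose ligands GAS6 and protein S (*Pros1*) also bridge to phosphatidylserine. MerTK, AXL and TYRO3 form the TAM family of receptors, and CD36 is a scavenger receptor that binds oxidized lipids. In LC3-associated phagocytosis, lipidated LC3 is then attached to the single-membrane phagosome to promote its degradation in the lysosome.

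A few coding stretches, read from the GENCODE vM39 transcripts of GRCm39 on the coding strand, show the parts of these genes that define their roles. The *Mfge8* stretch is shown because it holds the only arginine-glycine-aspartate codons of the coding sequence (capitals), the motif that integrins bind. It lies in exon 3 at chr7:78795041-78795079, minus strand.

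Mfge8: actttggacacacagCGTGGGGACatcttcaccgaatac

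The 3 TAM receptors are shown at the kinase signature of the family (capitals, 7 codons), because their similarity decides whether reads could be confused between them. The stretches lie at chr2:128634954-128635004 (plus strand, exon 17), chr7:25460851-25460901 (minus strand, exon 18) and chr2:119643372-119643422 (plus strand, exon 17).

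Mertk: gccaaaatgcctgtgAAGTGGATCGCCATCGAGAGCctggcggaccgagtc

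Axl: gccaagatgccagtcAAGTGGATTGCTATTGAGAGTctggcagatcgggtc

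Tyro3: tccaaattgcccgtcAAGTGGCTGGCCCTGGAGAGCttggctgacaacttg

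Of these 51 bases, 41 are identical between *Mertk* and *Axl*, 36 between *Mertk* and *Tyro3* and 33 between *Axl* and *Tyro3*. No window of 100 bases, the read length, in any annotated transcript of the 3 receptors is shared with another gene. The same holds for *Itgav*, *Gas6*, *Pros1* and *Mfge8*. In *Itgb5* 14.6% of the windows of all its annotated transcripts also occur in transcripts of other genes, so its counts are less certain, and in *Cd36* and *Ptk2* the shares are 0.0797% and 0.213%.

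Library totals ran from 24495952 to 35616134 counts, and *Map1lc3b* had 2778 to 4444 counts in the WT libraries against 168 to 332 in the *LC3b*-/- libraries. Levels are given as CPM, the TMM-scaled counts per 1000000, and single values always come in the order F1, F2, F3, M1 for WT and F1, F3, M for *LC3b*-/-. The sums of some cell type markers separated the genotypes and those of others overlapped, as the plot of summed markers shows. The sum of 10 RPE markers lay between 31200 and 49203 CPM in WT and between 13517 and 29216 CPM in *LC3b*-/-, without overlap. Its largest parts were *Ttr* and *Rgr*, at 13571 and 11559 CPM on average in WT. Taken singly, 9 of the 10 had lower estimates in *LC3b*-/-, and 5 were lower in every *LC3b*-/- library than in every WT library. Most of these markers were abundant, but *Best1* was at 1.27 and 1.45 CPM on average. The sum of 10 endothelial markers was 409 to 1294 CPM in WT and 1472 to 1718 CPM in *LC3b*-/-, again without overlap. Markers of the ocular surface epithelium (8 genes) summed to 8.57 to 2394 CPM in WT and 3264 to 23155 CPM in *LC3b*-/-, the highest in *LC3b*-/- F1. Photoreceptor markers (10 genes) ranged from 24.9 to 20261 CPM in WT, the highest in WT F2, and from 45.0 to 7072 CPM in *LC3b*-/-. Markers of macrophages and microglia (14 genes) summed to 600 to 804 CPM in WT and 633 to 1408 CPM in *LC3b*-/-. Fibroblast and pericyte markers (8 genes) summed to 413 to 1678 CPM and 978 to 2113 CPM, and Schwann cell and melanocyte markers (6 genes) to 194 to 1066 CPM and 155 to 205 CPM. No marker was at 0 in either group. In such bulk libraries fewer cells of a type and less RNA per cell cannot be told apart, and the part of these shifts in the results below was not tested.

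**Figure D1:**
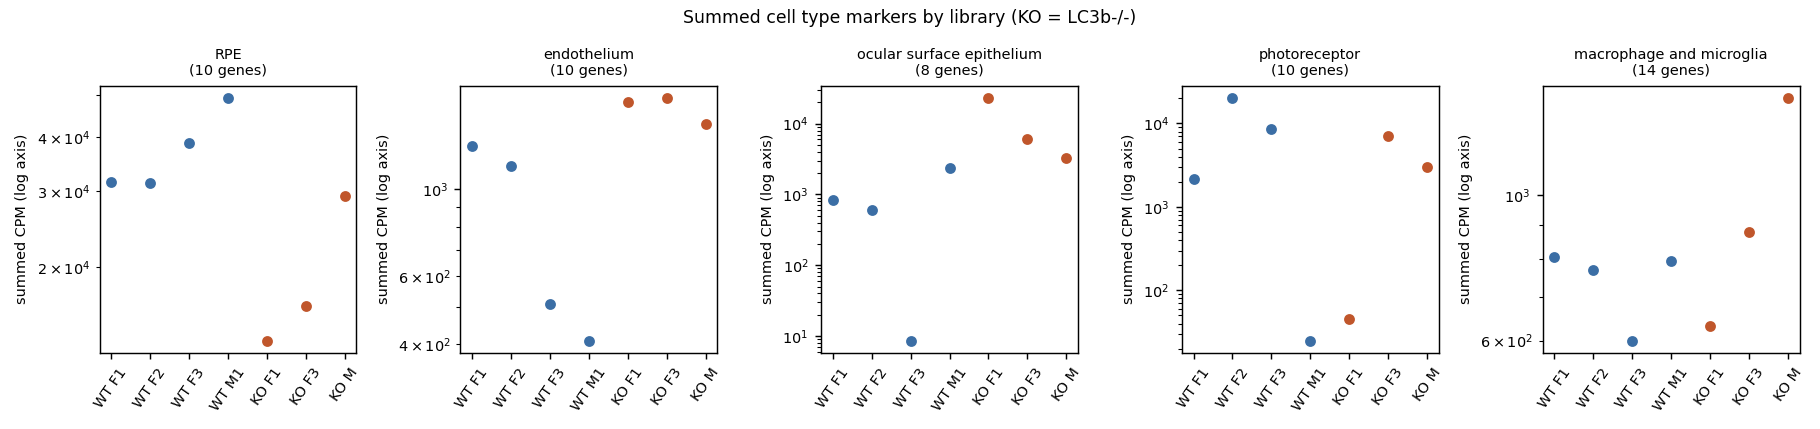
Summed CPM (log axis, TMM-scaled) of 5 sets of cell type markers in each of the 4 WT libraries (blue) and 3 *LC3b*-/- libraries (orange, KO). The RPE sum was lower and the endothelial and ocular surface sums higher in every *LC3b*-/- library than in every WT library, while the photoreceptor and macrophage sums overlap.

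None of the 10 genes was called by edgeR's quasi-likelihood test, where a call needs a Benjamini-Hochberg adjusted p under 0.05 together with a 1.5-fold difference. Of the 16990 genes 40 were called (0.235%), with 0.124% called higher and 0.112% called lower. The integrin ligand *Mfge8* stood nearest, 2.33-fold higher in *LC3b*-/- RPE, and was the 1 gene of the 10 with an unadjusted p under 0.05, where 24.1% of all genes tested had one. DESeq2's Wald test called *Mfge8* alone of the 10, where it called 9.85% of its 18583 genes (6.78% as higher), and limma voom called none of the 10, against 0.730% of all genes (0.471% as higher). By direction, 5 of the 10 were higher in *LC3b*-/- (*Mfge8*, *Axl*, *Gas6*, *Pros1* and *Cd36*) and 5 lower (*Tyro3*, *Itgav*, *Mertk*, *Ptk2* and *Itgb5*), and of all genes tested 51.2% were higher. Their median log2 fold change was 0.07, against 0.01 over all genes. Thus all 3 ligands, *Axl* and *Cd36* had higher means in *LC3b*-/-, and the means of *Mertk* and of both integrin subunits were lower.

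**Figure D2:**
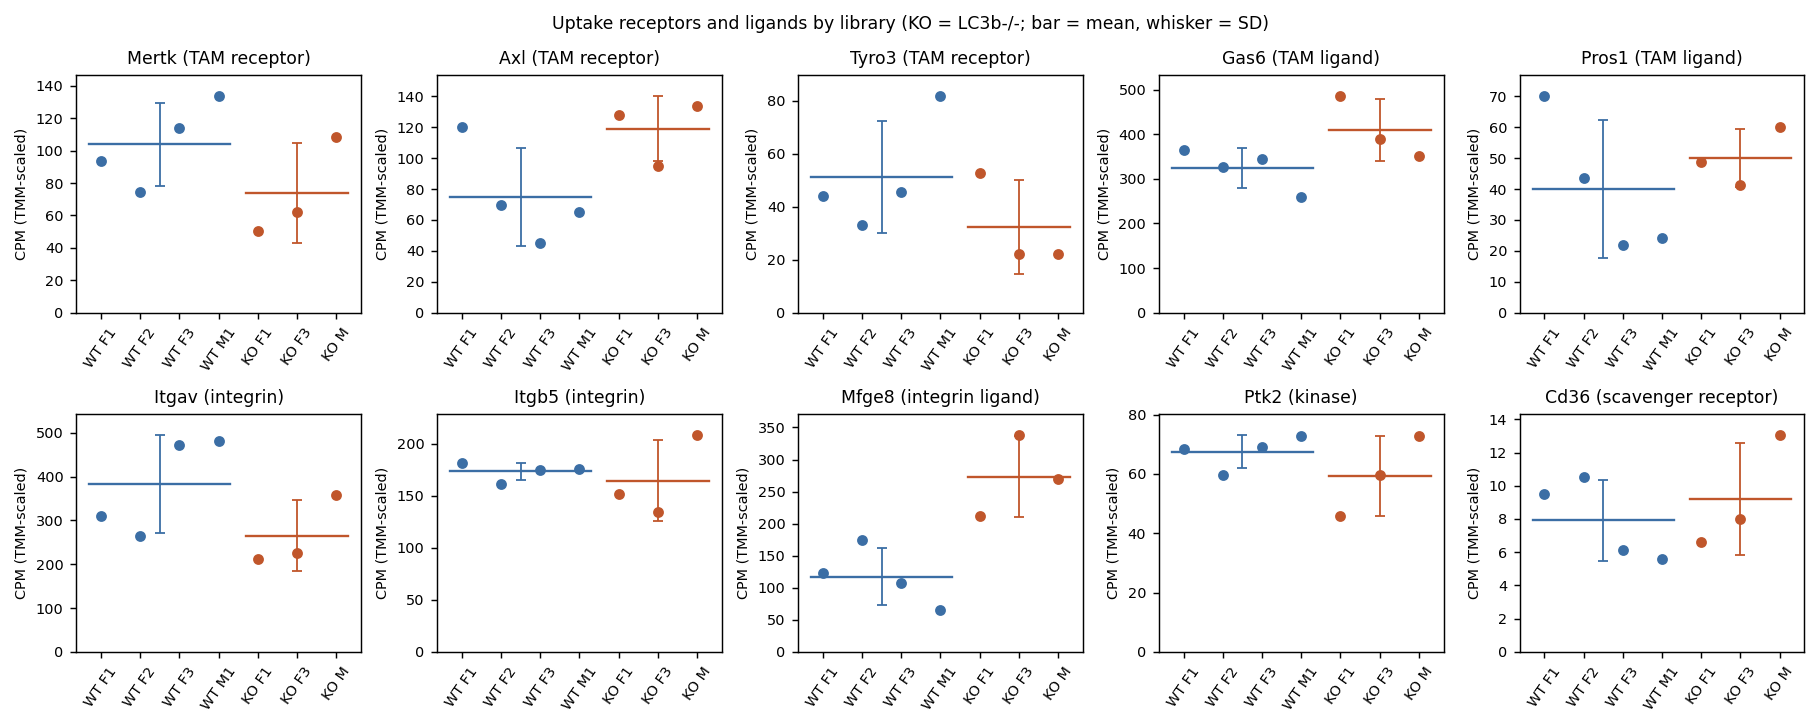
CPM (TMM-scaled, axis from 0) of the 10 uptake genes in each library, with the mean (bar) and SD (whisker) of 4 WT (blue) and 3 *LC3b*-/- libraries (orange, KO). Only in *Mfge8* do the groups not overlap, with 65.7 to 175 CPM in WT and 211 to 338 CPM in *LC3b*-/-.

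*Mfge8* (ENSMUSG00000030605, GRCm39 chromosome 7, 78783515 to 78798825) encodes the secreted bridge between phosphatidylserine and the integrin. Its levels were 122, 175, 107 and 65.7 CPM in the 4 WT libraries, and 211, 338 and 270 CPM in the 3 *LC3b*-/- libraries. Every *LC3b*-/- library lay above every WT library. Of the 10 genes this 1 had groups that did not overlap, against 22.3% of all genes tested. The means were 117 ± 45.0 CPM (SD, n = 4) and 273 ± 63.1 CPM (SD, n = 3), and the fitted log2 fold change was 1.22 (standard error 0.32, 95% interval 0.47 to 1.96). The unadjusted p of edgeR was 0.00584 and the adjusted p 0.103, and the exact two-sided permutation test gave p = 0.0571 where the smallest it can give is 0.0286. Within the females alone the log2 fold change was 1.02 (edgeR adjusted p = 0.140), and leaving out 1 library gave values from 1.01 to 1.47. DESeq2 gave 1.20 with an adjusted p of 0.00689, the only setting in which the gene was called. The endothelial marker sum was also higher in every *LC3b*-/- library (1472 to 1718 CPM, against 409 to 1294 CPM). So was the ocular surface sum (3264 to 23155 CPM, against 8.57 to 2394 CPM). The RPE marker sum was lower in every *LC3b*-/- library (13517 to 29216 CPM, against 31200 to 49203 CPM). Within WT this sum rose from F2 (31200 CPM) through F1 (31410 CPM) and F3 (38723 CPM) to M1 (49203 CPM), the reverse of *Mfge8*. Within *LC3b*-/- it rose from F1 (13517 CPM) through F3 (16250 CPM) to M (29216 CPM), while *Mfge8* was highest in F3. The photoreceptor marker sum overlapped between the groups. Within WT it was, like *Mfge8*, highest in F2 (20261 CPM) and lowest in M1 (24.9 CPM). Unlike in *Mfge8*, WT F1 (2154 CPM) lay below WT F3 (8695 CPM). In *LC3b*-/- F1, M and F3 the sum increased in the same order as *Mfge8* (45.0, 2987 and 7072 CPM). Between the groups the order differed: *LC3b*-/- F1 had less of these markers than WT F2 (45.0 against 20261 CPM) but more *Mfge8* (211 against 175 CPM). The part of any of these cell types in the *Mfge8* values was not tested.

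The TAM ligands differed less. *Gas6* (chromosome 8, 13515371 to 13544824) encodes the ligand that binds all 3 TAM receptors. It was at 364, 327, 344 and 260 CPM in the 4 WT libraries, and at 486, 391 and 352 CPM in the 3 *LC3b*-/- libraries. *LC3b*-/- F1 and F3 lay above every WT library and *LC3b*-/- M within the WT range. The means of 324 ± 45.1 CPM (SD, n = 4) and 409 ± 69.1 CPM (SD, n = 3) gave a log2 fold change of 0.34 (standard error 0.18, edgeR adjusted p = 0.282). Without *LC3b*-/- F1 it was 0.19.

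*Pros1* (chromosome 16, 62674275 to 62749710) encodes protein S, the anticoagulant that also activates MerTK. Its levels were 70.1, 43.5, 22.0 and 24.0 CPM in the 4 WT libraries, against 48.6, 41.3 and 60.0 CPM in the 3 *LC3b*-/- libraries. WT F1 was the highest of all 7 libraries, and the *LC3b*-/- libraries all lay between the extremes of WT. Within each group *Pros1* ordered the libraries as the fibroblast and pericyte marker sum did. The part of those cells in its values was not tested. The log2 fold change was 0.32 (standard error 0.40, edgeR adjusted p = 0.656) and 0.74 without WT F1. In the females alone it was -0.01, so the direction does not hold there.

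Among the TAM receptors the means differed in both directions. *Mertk* (ENSMUSG00000014361, chromosome 2, 128540729 to 128645080), the receptor without which outer segments are bound but not engulfed, was at 93.7, 74.4, 114 and 134 CPM in the 4 WT libraries. In the 3 *LC3b*-/- libraries it was at 50.2, 62.0 and 109 CPM. The 2 *LC3b*-/- females lay below every WT library, and the *LC3b*-/- male lay inside the WT range. The means were 104 ± 25.6 CPM (SD, n = 4) and 73.6 ± 31.0 CPM (SD, n = 3), and the fitted log2 fold change was -0.50 (standard error 0.31, 95% interval -1.21 to 0.22, edgeR adjusted p = 0.353). The value was -0.75 in the females alone (adjusted p = 0.147), -0.89 without *LC3b*-/- M (adjusted p = 0.0928) and -0.29 without *LC3b*-/- F1. The RPE marker sum ran the same way in the *LC3b*-/- libraries: 13517 CPM in F1, 16250 CPM in F3 and 29216 CPM in M. In WT too it rose in the order of *Mertk*, from F2 (31200 CPM) through F1 (31410 CPM) and F3 (38723 CPM) to M1 (49203 CPM). The part of RPE content in the *Mertk* values was not tested.

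*Axl* (ENSMUSG00000002602, chromosome 7, 25456535 to 25488329) is the TAM receptor that prefers GAS6 as a ligand and is common in vascular cells and fibroblasts. It was at 120, 69.4, 45.0 and 65.2 CPM in the 4 WT libraries, and at 128, 95.1 and 134 CPM in the 3 *LC3b*-/- libraries. Only WT F1 reached into the *LC3b*-/- range. The means were 74.9 ± 31.9 CPM (SD, n = 4) and 119 ± 21.0 CPM (SD, n = 3), and the fitted log2 fold change was 0.67 (standard error 0.31, 95% interval -0.06 to 1.40, edgeR adjusted p = 0.240). Without WT F1 it was 0.99 (adjusted p = 0.0654), without WT F3 0.48 (adjusted p = 0.373) and in the females alone 0.51 (adjusted p = 0.538). WT F1 also had the highest endothelial and fibroblast marker sums of the WT libraries, 1294 and 1678 CPM. Within each group *Axl* ordered the libraries as the fibroblast and pericyte sum did. That sum was 1678, 1146, 413 and 486 CPM in WT, and 1392, 978 and 2113 CPM in *LC3b*-/-. Between the groups the order differed, with a lower sum but more *Axl* in *LC3b*-/- F3 than in WT F2. The endothelial sum in *LC3b*-/- was 1676, 1718 and 1472 CPM, another order than *Axl*. The part of these cells was not tested.

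*Tyro3* (chromosome 2, 119628214 to 119648738), a TAM receptor that is prominent in the nervous system, was at 44.2, 32.9, 45.7 and 81.8 CPM in the 4 WT libraries. In the 3 *LC3b*-/- libraries it was at 52.9, 22.2 and 22.2 CPM. *LC3b*-/- F3 and M lay below every WT library, whereas *LC3b*-/- F1 exceeded the 3 WT females. The log2 fold change was -0.66 (standard error 0.42, edgeR adjusted p = 0.365), -1.21 without *LC3b*-/- F1 (adjusted p = 0.289) and -0.13 in the females alone.

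The integrin subunits were both abundant. *Itgav* (ENSMUSG00000027087, chromosome 2, 83554403 to 83637260), the subunit shared by all integrins of the αv class, was at 310, 265, 473 and 482 CPM in the 4 WT libraries. In the 3 *LC3b*-/- libraries it was at 211, 226 and 358 CPM. As in *Mertk*, the *LC3b*-/- females lay below every WT library and the male within the WT range. Within each group *Itgav* also rose in the order of the RPE marker sum. The part of RPE content in its values was not tested. The means of 383 ± 111 CPM (SD, n = 4) and 265 ± 80.9 CPM (SD, n = 3) gave a log2 fold change of -0.53 (standard error 0.29, edgeR adjusted p = 0.306), which was -0.81 without *LC3b*-/- M (adjusted p = 0.145).

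*Itgb5* (chromosome 16, 33649988 to 33771137), the partner subunit that gives the RPE integrin its name, was the steadiest of the 10 in WT. It was at 181, 161, 175 and 176 CPM in the 4 WT libraries, and at 151, 134 and 208 CPM in the 3 *LC3b*-/- libraries. The *LC3b*-/- libraries lay on both sides of the WT range. The log2 fold change was -0.08 (standard error 0.17, 95% interval -0.46 to 0.31, edgeR adjusted p = 0.811), and it was 0.03 without *LC3b*-/- F3, the 1 omission that turned its sign.

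*Ptk2* (chromosome 15, 73076832 to 73295129), the focal adhesion kinase that signals from the integrin, was at 68.4, 59.6, 69.1 and 72.6 CPM in the 4 WT libraries. In the 3 *LC3b*-/- libraries it was at 45.8, 59.6 and 72.7 CPM, with *LC3b*-/- F1 the lowest of the 7. The log2 fold change was -0.18 (standard error 0.17, 95% interval -0.57 to 0.20, edgeR adjusted p = 0.526). *Cd36* (chromosome 5, 17986432 to 18094067) was low in every library, with 145 to 441 counts, and its groups overlapped: 9.48, 10.5, 6.10 and 5.57 CPM in the 4 WT libraries and 6.60, 8.02 and 13.0 CPM in the 3 *LC3b*-/- libraries. Its log2 fold change of 0.22 (standard error 0.33, edgeR adjusted p = 0.713) turned to -0.25 in the females alone and to -0.12 without *LC3b*-/- M.

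**Figure D3:**
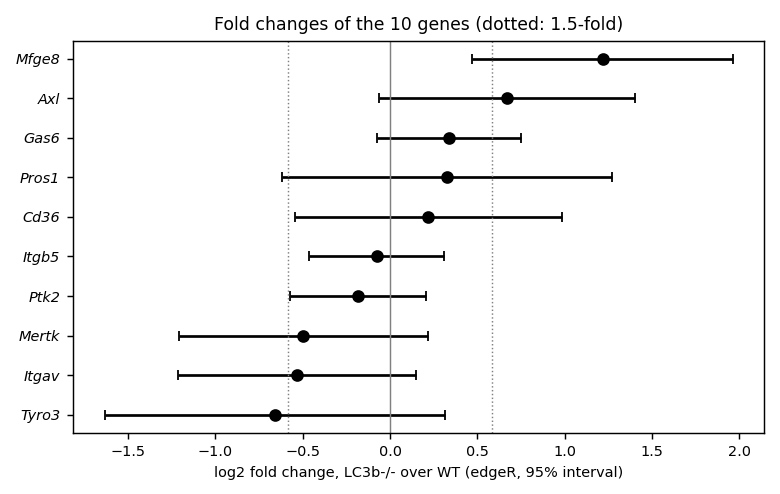
Log2 fold change of *LC3b*-/- over WT for the 10 uptake genes from edgeR's fit (points) with 95% intervals (lines), the dotted lines marking a 1.5-fold change. The interval of *Mfge8*, 0.47 to 1.96, is the one that does not include 0; those of *Itgb5* and *Ptk2* lie within -0.57 and 0.31.

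To compare levels between genes, counts were divided by the length of the union of a gene's exons and scaled to a sum of 1000000 per library. On this scale the WT means were 159 ± 24.2 for *Gas6*, 85.3 ± 30.6 for *Itgav*, 66.4 ± 6.98 for *Itgb5*, 65.7 ± 21.8 for *Mfge8* and 59.1 ± 17.9 for *Mertk* (SD, n = 4). The ligand *Gas6* thus stood first in WT, above *Itgav* without overlap of their WT libraries, while *Itgav*, *Itgb5*, *Mfge8* and *Mertk* overlapped each with the next. A second tier held *Axl* (21.7 ± 8.19), *Tyro3* (20.9 ± 9.33), *Pros1* (16.6 ± 8.48) and *Ptk2* (14.5 ± 2.09), again with each overlapping the next. Every WT library of *Mertk* lay above every WT library of *Axl*, and *Cd36* came last at 1.67 ± 0.403, below *Ptk2* without overlap. In *LC3b*-/- the order began with *Gas6* (193 ± 21.8) and *Mfge8* (155 ± 60.3), and *Mfge8* had moved from the fourth place to the one after *Gas6*, ahead of *Itgb5* (61.2 ± 17.0), *Itgav* (57.1 ± 20.9) and *Mertk* (41.0 ± 19.4; SD, n = 3). With the longest transcript as the length, *Mfge8* stood at 112 in WT and at 268 in *LC3b*-/-, the latter above the 239 of *Gas6*, so the order of these ligands in *LC3b*-/- depends on the length used. The gap between *Mertk* and *Axl* in WT depends on it too, since with the longest transcript *Axl* averaged 35.9 and *Mertk* 50.1, and *Mertk* in WT F1 (43.2) and F2 (33.5) lay below *Axl* in WT F1 (56.1).

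Ratios between genes of one library do not depend on how libraries are scaled. On the length scale, *Mertk* stood to *Axl* as 1.49, 2.04, 4.83 and 3.91 to 1 in the 4 WT libraries, and as 0.747, 1.25 and 1.55 to 1 in the 3 *LC3b*-/- libraries. The *LC3b*-/- ratios overlapped the WT ratios through WT F1 alone, and in *LC3b*-/- F1 *Axl* exceeded *Mertk*. Another gene length shifts this ratio by the same factor in every library, so the overlap stays as it is but the point of equality does not: with the longest transcript *Axl* exceeded *Mertk* in all 3 *LC3b*-/- libraries and in WT F1. The mean log2 ratio was 1.46 ± 0.79 (SD, n = 4) in WT and 0.18 ± 0.54 (SD, n = 3) in *LC3b*-/-. *Mfge8* stood to *Gas6* as 0.388, 0.617, 0.360 and 0.292 to 1 in the 4 WT libraries, and as 0.502, 0.998 and 0.888 to 1 in the 3 *LC3b*-/- libraries. Here WT F2 lay above *LC3b*-/- F1, and *LC3b*-/- F3 and M exceeded every WT library. *Itgav* and *Itgb5* stood between 0.940 and 1.57 to 1 in WT and between 0.797 and 0.986 to 1 in *LC3b*-/-. *Gas6* exceeded *Pros1* in every library, by 5.97 to 18.0 times in WT and 6.74 to 11.5 times in *LC3b*-/-. *Mertk* stood to *Tyro3* as 2.27 to 3.46 to 1 in WT and as 1.32 to 6.81 to 1 in *LC3b*-/-.

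**Figure D4:**
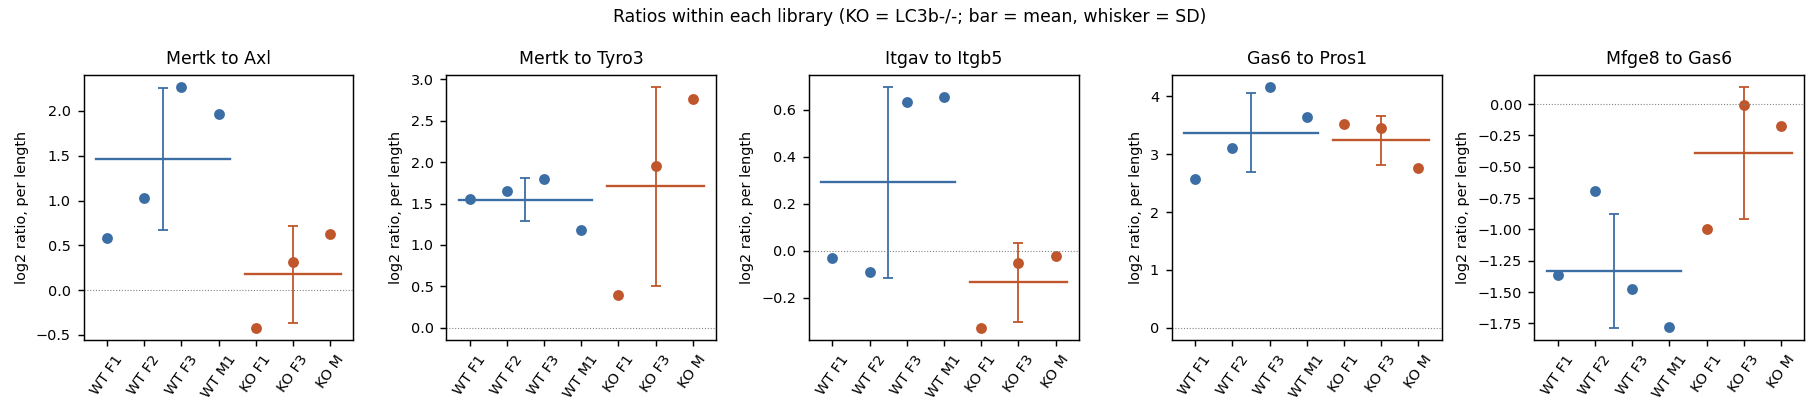
Log2 ratios between pairs of uptake genes per exon length within each library (0 means equal levels, dotted where shown), with mean (bar) and SD (whisker) of 4 WT (blue) and 3 *LC3b*-/- libraries (orange, KO). The *Mertk* to *Axl* ratios of *LC3b*-/- run from -0.42 to 0.63 and those of WT from 0.58 to 2.27.

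Likeness of pattern was measured as the root mean square difference between genes of their log2 CPM, each centred on its mean over the 7 libraries. Among the 10, *Mertk* and *Itgav* were closest to each other (0.13 log2 units, where their own variation was 0.47 and 0.44). *Axl* and *Pros1* were each other's closest (0.27, own variation 0.55 and 0.58), as were *Itgb5* and *Ptk2*, though their distance of 0.17 was near their own variation of 0.19 and 0.22. For the other 4 the distance to the nearest member was also close to or above their own variation: 0.62 from *Mfge8* to *Gas6* (variation 0.76), 0.60 from *Tyro3* to *Itgav* (0.63), 0.38 from *Cd36* to *Pros1* (0.41) and 0.37 from *Gas6* to *Itgb5* (0.25). Among the other 14927 protein-coding genes tested, *Mtmr10* (0.06), *Nipa1* (0.06) and *Prdm16* (0.07) were closest to *Mertk*, and *Peds1* (0.05), *Extl3* (0.06) and *Ftl1* (0.06), the ferritin light chain, to *Itgb5*. For *Mfge8* they were *Ppp1r3g* (0.17), *Stc1* (0.21), which encodes the secreted glycoprotein stanniocalcin, and *Orai2* (0.26), a calcium channel subunit.

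Other genes of uptake were taken from lists of ligands, integrin subunits, clearance receptors, signalling and actin genes, and phagosome genes. Of these 65 genes 63 were tested, 38 with a higher and 25 with a lower estimate in *LC3b*-/- (median log2 fold change 0.16). None was called with edgeR. Before adjustment 20 had a p below 0.05, 16 higher and 4 lower, where all genes tested gave 13.5% higher and 10.6% lower. DESeq2 called 12 of the 63, where it called 9.85% of all its genes. Of the 63 genes 12 lay above and 2 below WT in every *LC3b*-/- library, and 22.3% of all genes tested had groups that did not overlap. The phosphatidylserine receptor gene *Havcr1* and the scavenger receptor gene *Marco* had 0 counts in all 7 libraries, where 3 counts per library is the limit that a count of 0 allows.

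Among 6 other ligands, the galectin gene *Lgals3*, whose product also binds MerTK, had the smallest p. It was at 51.6, 33.4, 21.9 and 43.1 CPM in the 4 WT libraries, and at 311, 188 and 143 CPM in the 3 *LC3b*-/- libraries. The groups stood far apart, at 37.5 ± 12.8 CPM (SD, n = 4) and 214 ± 86.9 CPM (SD, n = 3). The log2 fold change was 2.51 (standard error 0.36) with an adjusted p of 0.0531 in edgeR, just outside the threshold. It was called by DESeq2, by voom, and by edgeR with DESeq2's size factors, library size alone, sex as a covariate, no filter, a minimum of 10 counts per library, or without WT F1 or *LC3b*-/- M. *LC3b*-/- F1, the library with the highest sum of ocular surface markers (23155 CPM), was also highest in *Lgals3*. *Thbs1*, the thrombospondin that bridges CD36 and αv integrins, averaged 558 ± 112 CPM over WT libraries against 971 ± 324 CPM without LC3b (log2 fold change 0.80, edgeR adjusted p = 0.144), without overlap. Of the 6 ligands 2 were higher, both with an unadjusted p under 0.05. The other 4 had lower estimates, with an unadjusted edgeR p from 0.210 (*Vtn*) to 0.952 (*Tub*). Of these, *Tulp1* ranged from 0.269 CPM in WT M1 to 636 CPM in WT F2, the libraries with the lowest and highest photoreceptor marker sums.

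Of 7 other integrin subunits 6 had higher estimates and 4 of these an unadjusted p under 0.05. *Itgam*, which marks myeloid cells, was at 17.9, 9.57, 5.54 and 8.11 CPM in the 4 WT libraries and at 60.0, 74.1 and 19.3 CPM in the 3 *LC3b*-/- libraries (log2 fold change 2.31, edgeR adjusted p = 0.0945). The macrophage marker sum overlapped between the groups (600 to 804 CPM in WT and 633, 879 and 1408 CPM in *LC3b*-/-). Of its 14 genes 6 had higher and 8 lower estimates in *LC3b*-/-, with a median log2 fold change of -0.15. Only *Cd68* and *Lyz2* were higher in every *LC3b*-/- library than in every WT library, and *Lyz2* alone was at 849 CPM in *LC3b*-/- M. The part of macrophages in the *Itgam* values was not tested. *Itgb1*, the widely used β1 subunit, averaged 148 ± 33.3 CPM over WT libraries against 257 ± 32.7 CPM without LC3b (log2 fold change 0.80, edgeR adjusted p = 0.0960). *Itgb8*, another partner of αv and named here after its values were seen, was at 1462 ± 397 and 877 ± 455 CPM (log2 fold change -0.74, edgeR adjusted p = 0.289). Per length its WT level was 356 ± 118, the highest of the 6 β subunits listed, with *Itgb5* and *Itgb1* both at 66.4.

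Among 13 other clearance receptors tested, 8 were higher and 5 lower. The stabilin genes, which encode phosphatidylserine receptors of sinusoidal endothelium and macrophages, had the smallest p. *Stab1* averaged 27.0 ± 11.0 CPM over WT libraries against 49.5 ± 0.132 CPM without LC3b (log2 fold change 0.87, edgeR adjusted p = 0.148), and *Stab2*, at 2.88 ± 0.507 and 1.65 ± 0.212 CPM, had a value of -0.80 (adjusted p = 0.148). Neither overlapped between the groups, which held for 22.3% of all genes tested, and their directions were opposite.

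Of 21 signalling and actin genes 15 were higher and 6 lower, with an unadjusted p under 0.05 in 6 and 2 of them. *Rock2*, a kinase that drives actomyosin contraction, was at 53.7, 44.5, 46.3 and 47.9 CPM in the 4 WT libraries and at 79.1, 69.8 and 68.8 CPM in the 3 *LC3b*-/- libraries (log2 fold change 0.59, standard error 0.11, edgeR adjusted p = 0.0842). *Cd81*, a tetraspanin that takes part in outer segment binding, was at 415, 347, 425 and 457 CPM in the 4 WT libraries and at 244, 230 and 279 CPM in the 3 *LC3b*-/- libraries (log2 fold change -0.71, standard error 0.15, edgeR adjusted p = 0.0906). In both genes, named for their small p, the groups did not overlap and the libraries within a group lay close together. The engulfment GTPase gene *Rac1* (log2 fold change 0.06) and the adaptor gene *Grb2* (-0.01), named after their values were seen, differed little in their means.

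Among 16 genes of phagosome transport and LC3-associated phagocytosis, 7 were higher, 3 of them with an unadjusted p under 0.05, and 9 lower. The 2 with the smallest p encode the membrane subunits of the phagocyte NADPH oxidase. *Cybb* averaged 13.3 ± 4.64 CPM over WT libraries against 27.6 ± 7.59 CPM without LC3b (log2 fold change 1.06, edgeR adjusted p = 0.116). *Cyba* was at 38.5 ± 9.49 and 59.1 ± 9.97 CPM (log2 fold change 0.62, adjusted p = 0.149). *Mreg*, which encodes the LC3-binding protein melanoregulin and is named after its values were seen, was at 7.34 ± 2.41 and 14.2 ± 5.37 CPM (log2 fold change 0.95, edgeR adjusted p = 0.151). *Rubcn*, a gene needed for LC3-associated phagocytosis and likewise chosen after its values were seen, was at 37.7 ± 4.12 and 38.4 ± 3.47 CPM (0.03, adjusted p = 0.922).

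**Figure D5:**
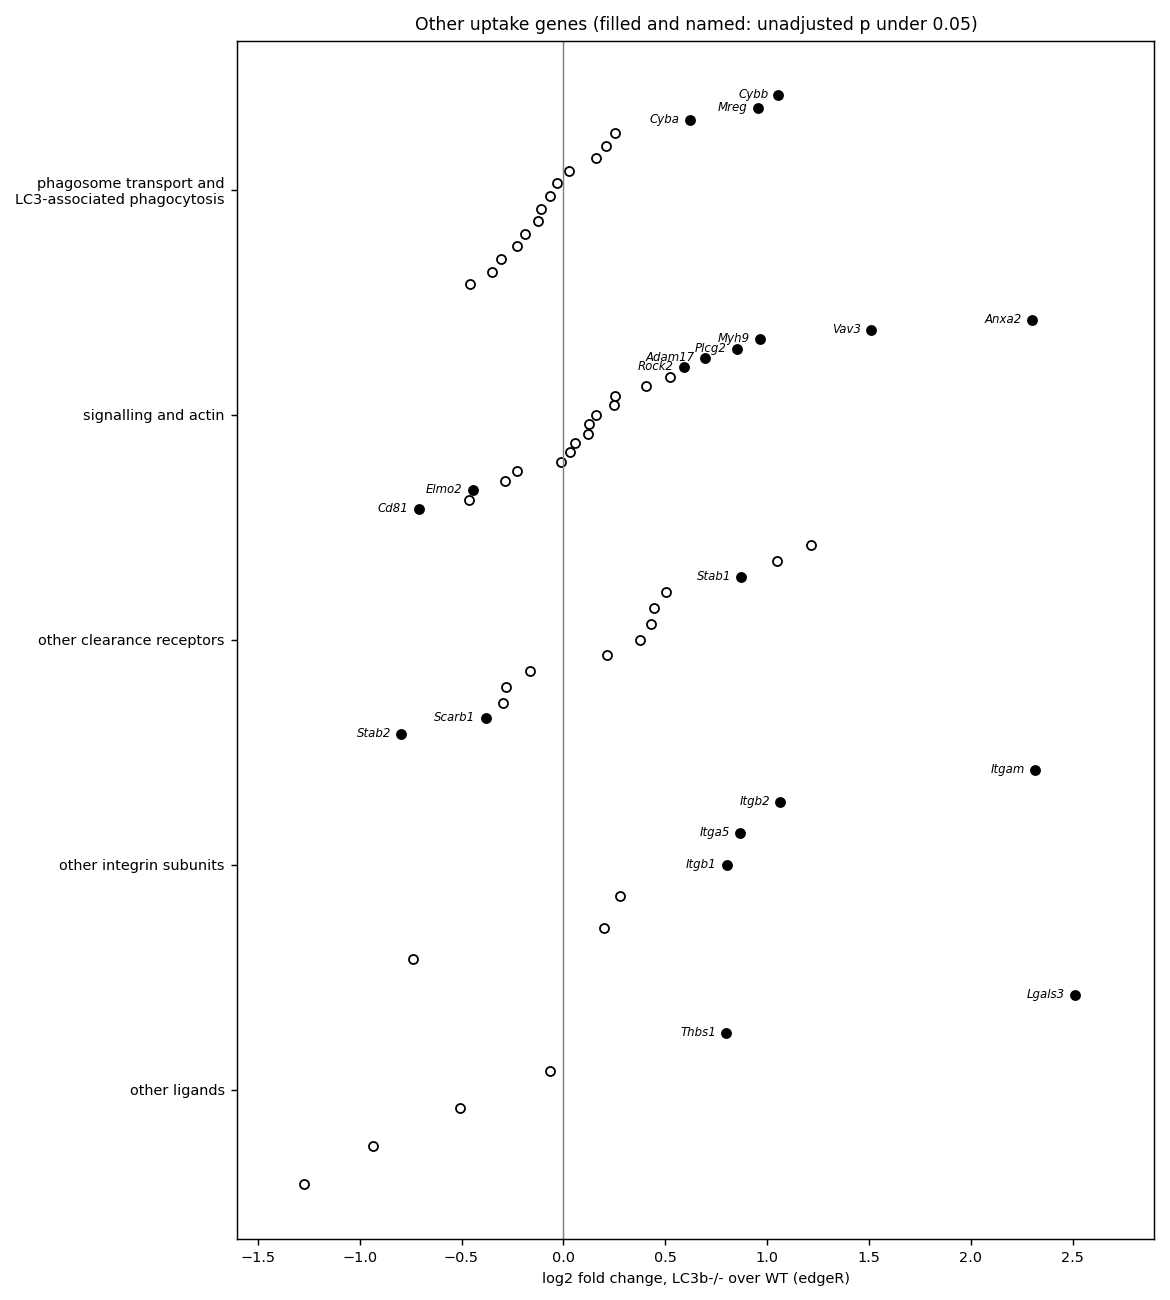
Log2 fold change of *LC3b*-/- over WT (edgeR) for the 63 tested genes of the 5 lists of other uptake genes, each point a gene, filled and named where the unadjusted p is under 0.05. *Lgals3*, *Itgam* and *Anxa2* lie farthest to the right (2.51, 2.31 and 2.30), and 4 of the 20 filled points lie left of 0.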

How the data were processed

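RNA was sequenced in 7 RPE libraries, 4 WT and 3 *LC3b*-/-, as 100 bp single reads from stranded mRNA libraries. The authors quantified reads with salmon against the GENCODE vM26 transcripts (GRCm39) and used tximeta to add transcripts up per gene. What they deposited are gene-level estimated counts as whole numbers, without library scaling. No column of another sample was present (0). Trimming and salmon options are not given in the sources used here. Of 52740 identifiers 51721 matched GENCODE vM39 on the same build, which gave symbols, positions and lengths. The RPE came from separate mice, so replicates are biological.

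The tests used edgeR 4.0.16 under R 4.3.3 (filterByExpr, TMM, quasi-likelihood test without covariates, Benjamini-Hochberg over 16990 genes). Log2 CPM used a prior count of 2. Intervals cover 95% and come from the fit. The exact permutation test ran over 35 splits of log2 CPM and is two-sided. Alternatives were DESeq2 1.42.0, limma 3.58.1 (voom with quality weights), other scalings and filters, sex as a covariate, females only, a replicate block and each library left out. The fits were tested on simulated data. Members and lists were chosen with earlier results of these data known. Besides the 10 members, the text names the 2 genes of smallest p in each list, and the genes closest in pattern to *Mertk*, *Itgb5* and *Mfge8* (3 each) and to each member among the others.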

Additional observations from a re-analysis of the deposited data

How the results depend on the processing

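No member was called in the settings run other than DESeq2's Wald test (1, *Mfge8*). Several of these fits called few genes at all: 0 with the replicate block, 2 without both WT F2 and *LC3b*-/- F1, and 11 without *LC3b*-/- F3. The count of members with an unadjusted p under 0.05, 1 in the fit described above, was 2 with DESeq2, voom, library size alone, no filter, females only and 5 libraries (without WT F2 and *LC3b*-/- F1, chosen after seeing the data), 3 with the replicate block and 4 with sex as a covariate (*Mertk*, *Itgav*, *Gas6* and *Mfge8*). Leaving out 1 library gave 1 to 3. The share of all genes under 0.05 was taken only in the fit described above (24.1%). The counts of the other fits have no such share beside them and show no gain of signal in the members. *Mfge8* had an unadjusted p under 0.05 in each of 17 settings, with log2 fold changes from 1.01 to 1.64 and adjusted p from 0.00689 to 0.379. Of the other uptake genes 0 were called with edgeR, 12 with DESeq2, and 1 with voom, DESeq2's size factors, library size alone, no filter, at least 10 counts in every library, or sex as a covariate. Leaving out 1 library gave 0 to 4 (4 without WT F1 and 3 without *LC3b*-/- M, fits that called 215 and 485 of all genes against 40). On the log2 scale, directions turned for *Itgb5* without *LC3b*-/- F3, to 0.028 (leaving out 1 library gave -0.28 to 0.028), and for *Pros1* in the females, to -0.011. *Cd36* turned to -0.25 in the females, to -0.064 with the replicate block and to -0.12 without *LC3b*-/- M, where leaving out 1 library gave -0.12 to 0.41. The cause was not tested. The numbers F1 and F3 occur in both groups but no label ties them to a shared litter or day, and their deviations correlated at 0.15 and 0.24 over genes. With the block 3 members were under 0.05. None was called, but that fit called 0 of the 16990 genes, so the absence of calls says nothing about the members. The number of mice limits precision: the 95% intervals of *Mertk* and *Tyro3* reach from -1.21 to 0.22 and from -1.63 to 0.32.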
